A study of Saccharomyces cerevisiae with 18 samples.

Results

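The ATG genes encode the core and selective machinery of autophagy in the budding yeast Saccharomyces cerevisiae. The set described here holds every transcript whose S. cerevisiae standard name is ATG followed only by a number. It comprises 37 of the 6612 transcripts in the deposited table, and all 37 ATG names of the reference annotation were found. The mRNA levels come from 18 libraries of polyA RNA from whole cells of RM11 (RM11a/α, of vineyard descent) and YJM975 (YJM975a/α, a clinical isolate), each a homozygous diploid. Cultures of each were grown in a synthetic complete medium, S-CSM, with 2% glucose, 2% glycerol or 2% ethanol, in 5 mL volumes, and harvested at an optical density (OD600) of 0.5 to 1.0, and each of the 6 strain and medium groups has 3 biological replicates. The strains differ across the whole genome, so that a strain difference belongs to no single allele.

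Autophagy delivers cytoplasm to the vacuole, the lytic compartment of yeast, inside a double-membrane vesicle, the autophagosome. When the nutrient-sensing kinase TORC1 is inactive, the Atg1 kinase complex starts the process, Atg9 vesicles and a phosphatidylinositol 3-kinase supply membrane and its lipid mark, and ubiquitin-like conjugation reactions attach Atg8 to the growing membrane. Receptors that bind both a cargo and Atg8 or Atg11 make the process selective for mitochondria, peroxisomes, endoplasmic reticulum or vacuolar enzymes, and growth on non-fermentable carbon is a textbook setting for mitophagy, the selective removal of mitochondria.

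The members were placed in groups by role. The kinase complex has 5 members, the conjugation machinery 8, membrane supply 8, selective autophagy 12 and breakdown in the vacuole 3, and ATG26 stands alone. Promoters are shown for ATG23, ATG34 and ATG41, which are among the members with the largest strain or medium differences. Each runs from 250 bases before the start codon to its 50th base, 5′ to 3′, in the S288C reference sequence of RefSeq (R64), from which RM11 and YJM975 may differ. Capitals mark matches, on either strand, to any of 4 motifs. The core of the URS1 element, bound by the repressor Ume6, was searched as GGCGGC. The motif bound by GATA factors was searched as GATAAG. The stress response element was searched as AGGGG, and the post-diauxic shift element as AGGGAT.
ATG23: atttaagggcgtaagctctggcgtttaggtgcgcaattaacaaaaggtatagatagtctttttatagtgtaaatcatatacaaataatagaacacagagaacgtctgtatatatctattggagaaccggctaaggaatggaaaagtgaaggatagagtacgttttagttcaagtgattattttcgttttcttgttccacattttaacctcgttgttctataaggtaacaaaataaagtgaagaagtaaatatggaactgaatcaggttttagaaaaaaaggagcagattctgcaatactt
ATG34: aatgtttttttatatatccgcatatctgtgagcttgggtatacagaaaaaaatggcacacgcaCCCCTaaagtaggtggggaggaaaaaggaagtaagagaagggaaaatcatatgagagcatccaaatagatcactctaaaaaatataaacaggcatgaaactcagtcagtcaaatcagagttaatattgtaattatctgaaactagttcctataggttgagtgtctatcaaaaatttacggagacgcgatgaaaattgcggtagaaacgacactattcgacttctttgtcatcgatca
ATG41: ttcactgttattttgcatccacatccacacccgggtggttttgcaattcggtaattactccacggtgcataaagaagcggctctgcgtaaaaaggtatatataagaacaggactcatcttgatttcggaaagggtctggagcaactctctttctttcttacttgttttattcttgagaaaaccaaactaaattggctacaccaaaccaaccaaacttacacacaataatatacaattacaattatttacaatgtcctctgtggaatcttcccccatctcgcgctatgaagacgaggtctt
The ATG34 promoter (chromosome XV) held 1 stress response element, on the opposite strand, starting 187 bases before the start codon. None of the 4 motifs occurred in the windows of ATG23 (chromosome XII) and ATG41 (chromosome XVI). Over all 37 members the URS1 core was present in 3 promoters (8.11%, against 5.13% of 6001 promoters of the same length) and the GATA motif in 10 (27.0% against 14.7%). The stress response element was in 8 (21.6% against 21.6%) and the post-diauxic shift element in 5 (13.5% against 9.33%). These matches are letters in a window and were not tested for binding.

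The deposited values are TPM, a length-scaled measure of transcript abundance that sums to 1000000 in each library, so the depth in reads is unknown. The authors' sample descriptions give the 6 libraries labelled glucose 1 run label and the other 12 another, so that glucose and run cannot be told apart. Markers of glucose growth went against the labels in RM11 and were mixed in YJM975. HXK2, the glucose-induced hexokinase, averaged 2.3 TPM in RM11 labelled glucose but 71.3 TPM in RM11 labelled glycerol. Glucose-repressed ICL1 averaged 1791, 511 and 1626 TPM in RM11 labelled glucose, glycerol and ethanol. In the same order YJM975 averaged 5.08, 1.84 and 5.26 TPM for HXK2 and 401, 464 and 1870 TPM for ICL1. PCK1, FBP1 and MLS1, also glucose-repressed, were highest in glucose in RM11. In YJM975 they were lowest in glycerol, and FBP1 alone was highest in glucose. The media named below are therefore those of the labels. The summed level of 10 sporulation markers was 942 to 1049 TPM in RM11 glycerol and 30.5 to 269.9 TPM in the other 15 libraries, with none of the 10 at 0 in any library. The largest part was SPS4 (mean 636 TPM) in RM11 glycerol and IME1 (227 TPM) in YJM975 glycerol. IME1 was lower in RM11 glycerol (153 TPM), and SMK1 overlapped between RM11 glycerol (14.5 TPM) and YJM975 glucose (14.1 TPM). Every other marker was highest in RM11 glycerol. The summed level of 5 stationary-phase markers was highest in YJM975 glucose (19546 to 20948 TPM) and lowest in RM11 glycerol (5608 to 6096 TPM). The 5 markers did not share this order. HSP26 was highest in YJM975 glucose and SPG1 in YJM975 glucose and glycerol, which overlapped, whereas SPG4 was highest in YJM975 glycerol and SNZ1 and SNO1 in YJM975 ethanol. HSP26, SNZ1 and SNO1 were lowest in RM11 glycerol, and SPG1 and SPG4 in RM11 glucose. The part of these markers in the ATG results was not tested. In bulk RNA, fewer cells of a type and less RNA per cell cannot be told apart.

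All 37 members were expressed above the filter of a mean of 1 TPM. On the TPM scale ATG8, the ubiquitin-like protein that coats autophagosome membranes, was the most abundant at a mean of 726 TPM over the 18 libraries. ATG33, a mitochondrial outer membrane protein of mitophagy, followed at 537 TPM, and ATG44, the mitofissin that divides mitochondria for mitophagy, at 233 TPM. ATG10, ATG2 and ATG16 were lowest, at 7.70, 10.3 and 11.7 TPM. Together the members held between 0.291% (RM11 glycerol) and 0.355% (YJM975 glucose) of all TPM, in group means. With 1 TPM added, the highest group mean exceeded the lowest by a median of 1.79-fold over the members, from 1.18-fold for the protease gene ATG4 to 4.22-fold for ATG23, against a median of 2.60-fold over the 6309 genes tested. The lowest group was YJM975 glucose for 16 of 37 members, against 42.5% of all genes, and the highest was YJM975 glucose for 11, against 19.4%. RM11 glycerol was the highest for 6 members, against 44.6% of all genes, and the lowest for 8, against 10.7%. YJM975 glycerol was the lowest for 6, against 30.9%.

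**Figure D1:**
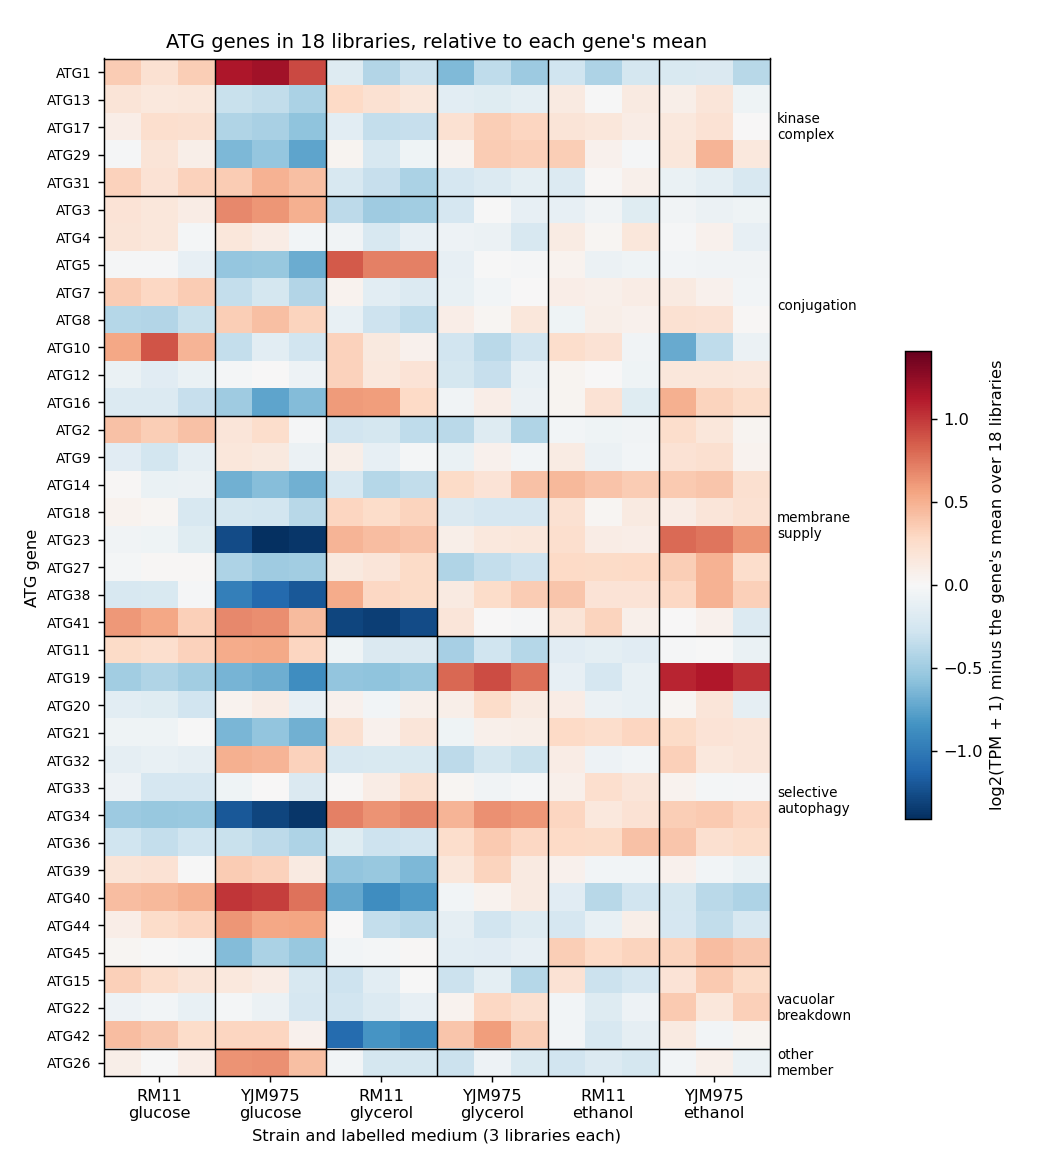
Each row is 1 of the 37 ATG genes in order of role, each column 1 of the 18 libraries in order of strain and labelled medium, and colour is log2(TPM + 1) minus the gene's mean over all libraries. The YJM975 glucose columns hold both the highest values of ATG1 and the lowest of ATG23 and ATG34, the RM11 glycerol columns the lowest values of ATG41, and the YJM975 glycerol and ethanol columns the highest of ATG19.

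Differences below are on the log2(TPM + 1) scale, ± the standard error of a limma fit over all 18 libraries, and a gene is called where its adjusted p is under 0.05 over the 6309 genes tested. In glucose, YJM975 and RM11 differed in 27 of 37 members (73.0%), against 83.1% of all genes. Of these, 10 were higher in YJM975 and 17 lower, as 22.5% and 60.7% of all genes were. The member median was -0.14 and that of all genes -0.38. With each library centred on its median, the split became 22 higher and 10 lower, against 43.7% and 39.6% of all genes. In glycerol 24 members were called (64.9%, against 86.2% of all genes), 12 in each direction, against 16.2% higher and 70.1% lower among all genes. Here centring gave 34 higher and 1 lower, against 46.1% and 37.6% of all genes, since it moved every glycerol strain difference by 0.69. In ethanol 11 were called (29.7%, against 48.0% of all genes), 9 higher and 2 lower, against 26.8% and 21.2%, and 8 higher and 4 lower with centring (24.1% and 28.5% of all genes). That count fell to 7 without RM11 ethanol replicate 2, 6 without RM11 ethanol replicate 3, 5 without YJM975 ethanol replicate 1 and 7 without YJM975 ethanol replicate 2. At least 2-fold and called were 1 member in glucose (27.3% of all genes), 3 in glycerol (34.5%) and 1 in ethanol (4.72%).

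**Figure D2:**
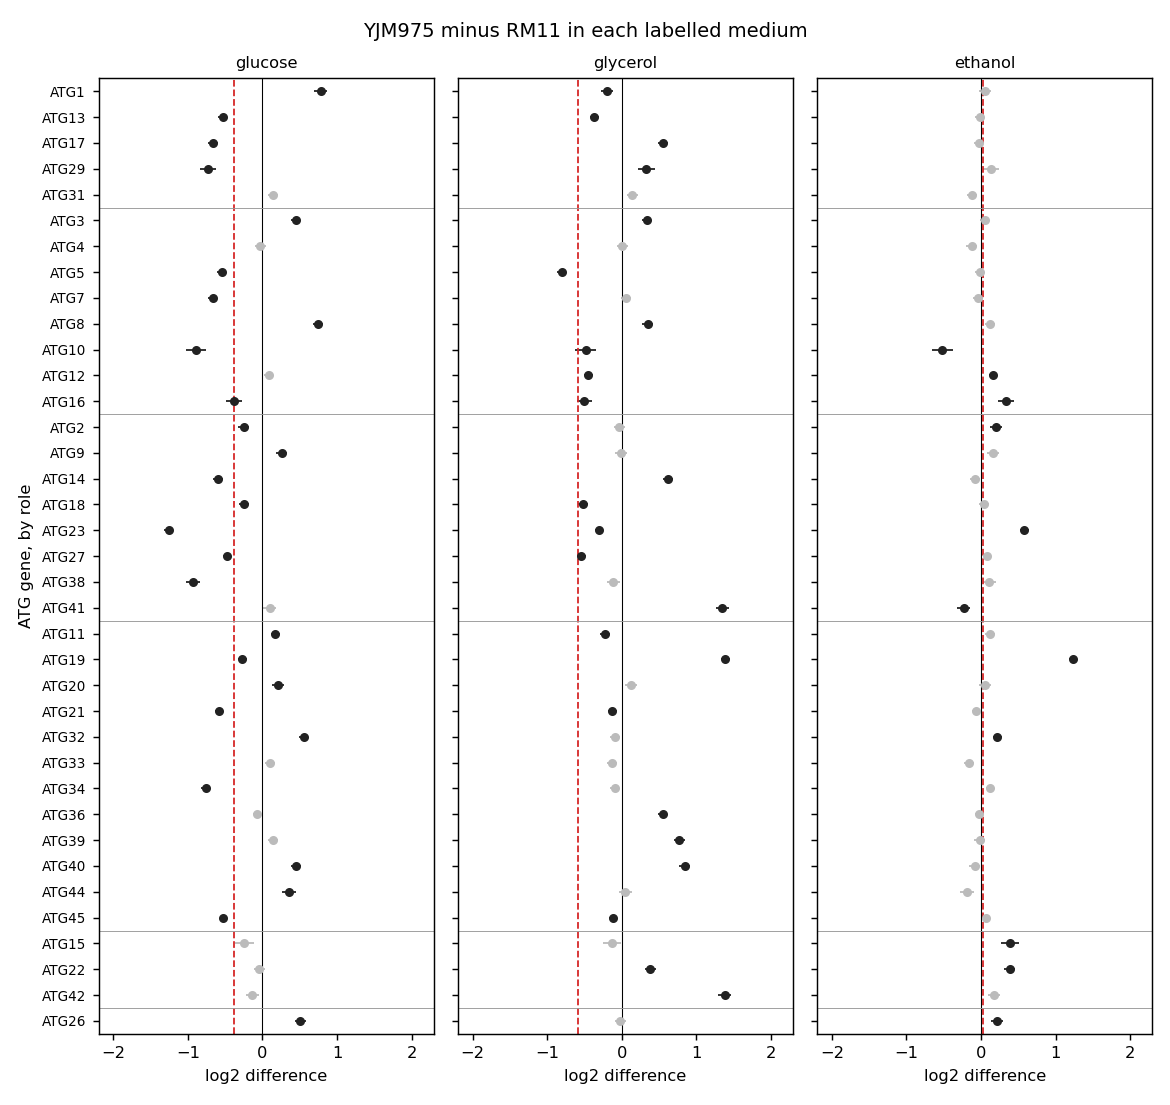
Log2 difference in log2(TPM + 1), YJM975 minus RM11, for the 37 ATG genes by role in each labelled medium. Bars are standard errors of the limma fit, black points are called and grey points are not, and the red dashed line is the median of all genes tested. ATG19 lies at -0.27 in glucose and at 1.39 and 1.23 in glycerol and ethanol.

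Within the kinase complex the kinase gene ATG1 was higher in YJM975 than in RM11 in glucose, and the scaffold genes ATG17 and ATG29 were lower. ATG1, the serine/threonine kinase, had 44.4, 40.1 and 44.2 TPM in the RM11 glucose libraries, 30.2, 25.7 and 27.8 TPM in glycerol and 28.1, 25.3 and 28.8 TPM in ethanol. In YJM975 it had 77.5, 79.5 and 66.6 TPM in glucose, 22.1, 26.6 and 23.8 TPM in glycerol and 29.6, 29.7 and 26.1 TPM in ethanol. Every YJM975 glucose library stood above every other library, and the strains overlapped in glycerol and ethanol. ATG1 was 1.72-fold higher in YJM975 than in RM11 in glucose (0.78 ± 0.08, limma adjusted p = 1.41e-07). It was lower in glycerol than in glucose in both strains, with differences of -0.61 ± 0.08 in RM11 and -1.58 ± 0.08 in YJM975, and lower in ethanol, with -0.63 ± 0.08 and -1.35 ± 0.08. ATG17 and ATG29, scaffold subunits with ATG31, were lower in YJM975 in glucose and higher in glycerol. In glucose ATG17 averaged 18.8 ± 1.12 TPM in RM11 and 11.5 ± 0.679 TPM in YJM975 (SD, n = 3), a difference of -0.67 ± 0.07, and the difference in glycerol was 0.55 ± 0.07. ATG29 differed by -0.73 ± 0.11 in glucose and 0.33 ± 0.11 in glycerol, the latter not called without RM11 glycerol replicate 2 (0.26). ATG29 overlaps the gene SET6 in the annotation, so its reads may be shared. ATG31 did not pass the test in any strain contrast (0.14, 0.14 and -0.12), but with centring it was called higher in YJM975 in glucose (0.57) and glycerol (0.83). It was lower in glycerol than in glucose (-0.62 ± 0.07 in RM11 and -0.61 ± 0.07 in YJM975). ATG13, through which TORC1 acts on the kinase, was -0.53 ± 0.06 in YJM975 against RM11 in glucose and -0.37 ± 0.06 in glycerol. With centring the glucose difference was -0.11 and no longer called (limma adjusted p = 0.0537), and the glycerol difference turned to 0.32. None of the 5 members was called between strains in ethanol, where 29.7% of all ATG members and 48.0% of all genes were.

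The conjugation genes were led by ATG8. Its level was 541, 535 and 573 TPM in RM11 glucose, 666, 582 and 559 TPM in RM11 glycerol and 686, 757 and 745 TPM in RM11 ethanol. The YJM975 libraries had 908, 961 and 888 TPM in glucose, 765, 727 and 800.3 TPM in glycerol and 828, 826 and 721 TPM in ethanol. The strains did not overlap in glucose and glycerol and overlapped in ethanol. YJM975 was higher by 0.74 ± 0.07 in glucose and 0.35 ± 0.07 in glycerol, and the difference in ethanol did not pass the test (0.12 ± 0.07). Between ethanol and glucose ATG8 differed in opposite directions, 0.41 ± 0.07 in RM11 and -0.22 ± 0.07 in YJM975, the latter not called without YJM975 ethanol replicate 3 (-0.15). ATG3, the E2 enzyme that attaches Atg8 to lipid, was also higher in YJM975 in glucose (0.45 ± 0.06) and glycerol (0.34 ± 0.06), and was lower in glycerol than in glucose in both strains (-0.61 and -0.72).

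ATG5 and ATG10, of the branch that joins Atg12 to Atg5, were lower in YJM975 in glucose, where ATG8 and ATG3 were higher. The branch did not move as 1. In glucose ATG12 itself did not pass the test (0.08 ± 0.06), and with centring it was called higher in YJM975 (0.51). ATG16, of the same branch, was lower there (-0.38 ± 0.10), but 0.05 and not called with centring. ATG5, the acceptor of Atg12, had 24.6, 24.6 and 22.9 TPM in RM11 glucose, 46.2, 41.3 and 41.4 TPM in RM11 glycerol and 25.9, 23.5 and 23.9 TPM in RM11 ethanol. In YJM975 it had 16.7, 16.9 and 14.9, then 22.95, 24.9 and 24.6, then 24.1, 24.1 and 24.01 TPM in the same media. The RM11 glycerol libraries stood above all others and the YJM975 glucose libraries below all others. ATG5 was lower in YJM975 in glucose (-0.54 ± 0.06) and glycerol (-0.81 ± 0.06), and it rose from glucose to glycerol by 0.81 ± 0.06 in RM11 and 0.55 ± 0.06 in YJM975. It was -0.81 uncentred and -0.12 centred between strains in glycerol, the 1 member lower there under both scalings. ATG10, the E2 enzyme of Atg12 and the least abundant member, had, in glucose, 11.2, 14.5 and 10.7 TPM in RM11 against 5.63, 6.54 and 5.95 TPM in YJM975. It had 9.51, 8.21 and 7.77 against 5.94, 5.43 and 5.93 TPM in glycerol and 8.97, 8.68 and 7.09 against 4.11, 5.56 and 6.94 TPM in ethanol, so that the strains did not overlap in any medium. ATG10 was the only member called lower in YJM975 in all 3 media (-0.89 ± 0.14, -0.49 ± 0.14 and -0.52 ± 0.14), although its glycerol difference was 0.20 with centring and 0.55 with quantile normalization. ATG16, which binds the Atg12-Atg5 conjugate, rose from glucose to glycerol in RM11 (0.73 ± 0.10) and YJM975 (0.61 ± 0.10). ATG7, the E1 enzyme that both branches share, was lower in YJM975 in glucose (-0.67 ± 0.06) and did not pass the test in glycerol or ethanol (0.05 and -0.04), although with centring it was called higher in glycerol (0.74). ATG4, the protease that trims Atg8, was not called in any strain contrast (-0.03, 0.00 and -0.12 in glucose, glycerol and ethanol). With centring it was called in each, higher in YJM975 in glucose (0.40) and glycerol (0.69) and lower in ethanol (-0.17).

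Membrane supply held the largest strain difference in glucose. ATG23, a peripheral membrane protein that Atg9 needs to reach the site of assembly, had 25.4, 25.1 and 23.2 TPM in RM11 glucose, 36.99, 35.7 and 34.9 TPM in RM11 glycerol and 31.2, 28.4 and 28.1 TPM in RM11 ethanol. In YJM975 it had 10.3, 9.25 and 9.52 TPM in glucose, 27.8, 29.3 and 29.4 TPM in glycerol and 46.5, 45.0 and 40.98 TPM in ethanol. No pair of groups overlapped among those compared, and YJM975 glucose was the lowest and YJM975 ethanol the highest. The strain difference was -1.26 ± 0.06 in glucose (limma adjusted p = 1.79e-12), -0.31 ± 0.06 in glycerol and 0.58 ± 0.06 in ethanol, and the glycerol value became 0.38 with centring. From glucose to ethanol ATG23 rose 4.22-fold in YJM975 (2.08 ± 0.06) and 1.18-fold in RM11 (0.24 ± 0.06).

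ATG38 and ATG14 encode the autophagy-specific subunits of the phosphatidylinositol 3-kinase complex. ATG38 had 27.4, 27.6 and 31.8 TPM in RM11 glucose, 46.9, 39.7 and 39.1 TPM in RM11 glycerol and 42.6, 37.1 and 36.9 TPM in RM11 ethanol. In YJM975 the values were 16.04, 14.5 and 13.5 TPM in glucose, 35.4, 38.9 and 41.7 TPM in glycerol and 39.7, 45.6 and 40.9 TPM in ethanol. The YJM975 glucose libraries were below all others and the strains overlapped in glycerol and ethanol. ATG38 was lower in YJM975 in glucose (-0.93 ± 0.09) and rose in YJM975 by 1.34 ± 0.09 in glycerol and 1.46 ± 0.09 in ethanol. ATG14 was lower in YJM975 in glucose (-0.60 ± 0.07) and higher in glycerol (0.62 ± 0.07). ATG27, a membrane protein of Atg9 vesicles, had 63.7, 65.4 and 69.9 TPM in RM11 glycerol and 42.8, 45.6 and 47.2 TPM in YJM975 glycerol, without overlap. It had 56.9, 58.5 and 58.5 TPM in RM11 glucose and 42.4, 40.8 and 40.9 TPM in YJM975 glucose, and in ethanol 70.6, 70.1 and 70.4 TPM in RM11 and 73.8, 81.5 and 68.9 TPM in YJM975. On the TPM scale YJM975 was the lower strain in glucose and glycerol, and the strains overlapped in ethanol. Its glucose difference of -0.48 ± 0.06 was -0.05 and no longer called with centring (limma adjusted p = 0.407). Its glycerol difference of -0.54 ± 0.06 turned to 0.15.

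ATG41, which also acts on Atg9 traffic and is induced by starvation, was low in RM11 glycerol. The RM11 libraries had 212, 202 and 175 TPM in glucose, 55.95, 54.5 and 56.95 TPM in glycerol and 157, 173 and 145 TPM in ethanol. The YJM975 libraries had 221, 219 and 189 TPM in glucose, 156, 138 and 137 TPM in glycerol and 139, 144 and 120.5 TPM in ethanol. Each RM11 glycerol library was below all 15 others, and the strains overlapped in glucose. In glycerol ATG41 was 2.54-fold higher in YJM975 (1.35 ± 0.09, limma adjusted p = 1.11e-10). RM11 glycerol was -1.79 ± 0.09 against RM11 glucose, the largest fall from glucose of any member in either strain. The strain difference in ethanol (-0.23 ± 0.09) was not called without RM11 ethanol replicate 1 (-0.23) or 2 (-0.17), or without YJM975 ethanol replicate 1 (-0.26) or 3 (-0.15). ATG9, the lipid scramblase, and ATG2, the lipid transfer protein, differed between strains in glucose by 0.26 ± 0.08 and -0.25 ± 0.08, and the ATG2 value was 0.17 with centring.

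ATG19 and ATG34 are neighbouring genes for related receptors. Their coding sequences are 53.8% identical over 1322 aligned columns. Atg19 carries aminopeptidase I and α-mannosidase to the vacuole in the cytoplasm-to-vacuole targeting (Cvt) pathway, and Atg34 carries α-mannosidase during starvation. ATG19 had 63.1, 65.99 and 63.2 TPM in RM11 glucose, 60.3, 59.9 and 61.2 TPM in RM11 glycerol and 82.3, 75.4 and 82.95 TPM in RM11 ethanol. In YJM975 it had 56.2, 54.9 and 48.2 TPM in glucose, 157, 169 and 154 TPM in glycerol and 189.6, 197 and 183 TPM in ethanol. All 6 YJM975 glycerol and ethanol libraries stood above the other 12. YJM975 exceeded RM11 by 1.39 ± 0.06 in glycerol and 1.23 ± 0.06 in ethanol (2.62-fold and 2.35-fold, limma adjusted p = 2.33e-13 and 1.86e-11). In glucose the difference was -0.27 ± 0.06, and 0.16 with centring. The rise from glucose was 1.58 ± 0.06 to glycerol and 1.82 ± 0.06 to ethanol in YJM975, while in RM11 the glycerol difference did not pass the test (-0.08 ± 0.06, or -0.36 and called lower with centring) and the rise was 0.32 ± 0.06 in ethanol.

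ATG34 was lowest in glucose in both strains. Its values were 83.6, 82.02 and 82.4 TPM in RM11 glucose, 196, 185 and 191 TPM in glycerol and 148, 133 and 137 TPM in ethanol. YJM975 had 51.7, 48.1 and 45.3 TPM in glucose, 166, 188 and 183 TPM in glycerol and 152, 154 and 147 TPM in ethanol. The strains overlapped in glycerol and ethanol and did not in glucose. ATG34 rose in glycerol over glucose by 1.20 ± 0.06 in RM11 and 1.86 ± 0.06 in YJM975, the largest rise of any member in that comparison in either strain. In ethanol it rose by 0.74 ± 0.06 and 1.62 ± 0.06. Its strain difference was -0.76 ± 0.06 in glucose, while the glycerol and ethanol differences did not pass the test (-0.10 and 0.12). With centring the glycerol difference was 0.59 and called.

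ATG11 and ATG32 were highest in YJM975 glucose. ATG11, which gathers cargo-bound receptors to the kinase, had 24.3, 23.7 and 25.3 TPM in RM11 glucose, 19.1, 17.1 and 17.2 TPM in glycerol and 17.7, 17.97 and 17.8 TPM in ethanol. In YJM975 there were 29.2, 29.2 and 24.8 TPM in glucose, 14.1, 16.2 and 14.9 TPM in glycerol and 19.8, 19.9 and 18.6 TPM in ethanol. Glucose libraries were the highest in each strain, the strains overlapped in glucose, and it fell in glycerol by 0.44 ± 0.07 in RM11 and 0.84 ± 0.07 in YJM975. ATG32, the mitochondrial receptor of mitophagy, had 55.4, 56.1 and 55.6 TPM in RM11 glucose, 51.8, 52.0 and 51.9 TPM in glycerol and 65.4, 57.8 and 58.8 TPM in ethanol. YJM975 had 86.0, 84.9 and 76.2 TPM in glucose, 46.6, 50.9 and 48.7 TPM in glycerol and 76.6, 67.1 and 68.3 TPM in ethanol. Glycerol was the lowest medium in each strain, and in YJM975 the glucose and ethanol libraries overlapped. YJM975 exceeded RM11 in glucose (0.55 ± 0.06) and ethanol (0.22 ± 0.06, or 0.16 and not called without YJM975 ethanol replicate 1), and in glycerol the difference did not pass the test (-0.09 ± 0.06, or 0.60 and called with centring). Neither medium contrast with glucose was called in RM11 (-0.10 for glycerol and 0.12 for ethanol, which centring made -0.38 and 0.15, both called), and both were lower in YJM975 (-0.74 ± 0.06 and -0.22 ± 0.06). ATG33 did not pass the test in any strain contrast (0.10, -0.13 and -0.16 in glucose, glycerol and ethanol). With centring it was called in each, higher in YJM975 in glucose (0.52) and glycerol (0.56) and lower in ethanol (-0.20).

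The receptors of the endoplasmic reticulum and of peroxisomes moved in opposite directions between glucose and ethanol. ATG40, the receptor for autophagy of the endoplasmic reticulum, had 122, 123 and 128 TPM in RM11 glucose, 53.9, 48.6 and 51.1 TPM in glycerol and 80.5, 68.3 and 74.5 TPM in ethanol. In YJM975 it stood at 181, 177 and 154 TPM in glucose, 87.2, 92.9 and 98.3 TPM in glycerol and 75.2, 68.9 and 66.2 TPM in ethanol. The glucose libraries were highest in each strain and RM11 glycerol was lowest. ATG40 was lower than in glucose, with differences of -1.26 ± 0.07 in RM11 glycerol, -0.73 ± 0.07 in RM11 ethanol, -0.87 ± 0.07 in YJM975 glycerol and -1.27 ± 0.07 in YJM975 ethanol. ATG39, the receptor of the nuclear envelope, was lower in RM11 glycerol than in RM11 glucose (-0.70 ± 0.07), and YJM975 exceeded RM11 in glycerol by 0.77 ± 0.07. ATG36, the peroxisome receptor, had 102, 98.5 and 102 TPM in RM11 glucose, 111, 101 and 103 TPM in glycerol and 152, 150.1 and 166 TPM in ethanol. In YJM975 the 3 media gave 99.6, 95.98 and 91.99 TPM, 148, 160.4 and 153 TPM and 164, 146 and 149 TPM in the same order. RM11 was high in ethanol alone, and YJM975 in both glycerol and ethanol. The rise over glucose was 0.62 ± 0.06 in RM11 ethanol, 0.68 ± 0.06 in YJM975 glycerol and 0.67 ± 0.06 in YJM975 ethanol. ATG45, a glycogen receptor, rose in ethanol in both strains (0.32 ± 0.05 and 0.90 ± 0.05), as did ATG21, a phosphoinositide-binding protein of the Cvt pathway (0.31 ± 0.05 and 0.84 ± 0.05).

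**Figure D3:**
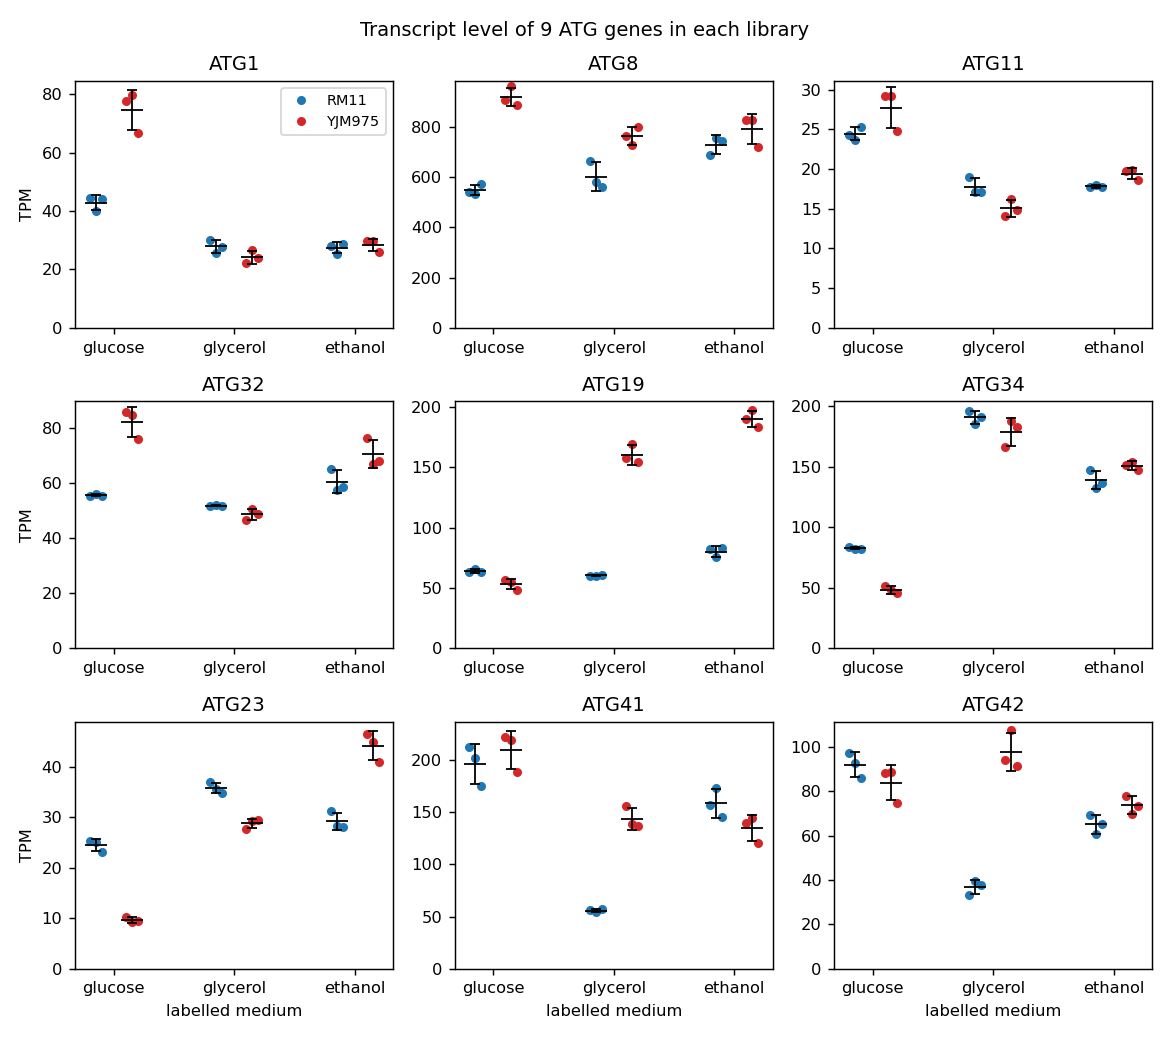
TPM of 9 ATG genes in every library, by labelled medium, with RM11 in blue and YJM975 in red (n = 3 each). Long black bars are means and whiskers SDs, and each vertical axis starts at 0. ATG19, ATG23 and, narrowly in glycerol and ethanol, ATG32 separate the strains in all 3 media. ATG8 does so in glucose and glycerol, and ATG1 and ATG34 in glucose. ATG11, ATG41 and ATG42 do so in glycerol and, narrowly, in ethanol.

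Among the genes of breakdown in the vacuole, ATG42, a vacuolar carboxypeptidase, was low in RM11 glycerol. Its values were 97.3, 93.1 and 86.1 TPM in RM11 glucose, 33.2, 39.6 and 37.9 TPM in glycerol and 69.5, 60.9 and 65.4 TPM in ethanol. In YJM975 they were 88.2, 88.7 and 74.9 TPM in glucose, 94.1, 108 and 91.5 TPM in glycerol and 78.1, 69.8 and 73.6 TPM in ethanol. The 3 RM11 glycerol libraries lay below all others, and the strains overlapped in glucose. YJM975 exceeded RM11 by 1.38 ± 0.08 in glycerol (2.60-fold), and RM11 fell from glucose to glycerol by 1.30 ± 0.08. ATG15, the lipase that breaks down autophagic bodies, was higher in YJM975 in ethanol (0.39 ± 0.12), but was not called without RM11 ethanol replicate 2 (0.29) or 3 (0.32) or YJM975 ethanol replicate 2 (0.34). ATG22, an amino acid exporter of the vacuole, was higher in YJM975 in glycerol (0.38 ± 0.07) and ethanol (0.39 ± 0.07). ATG26, a sterol glucosyltransferase needed for peroxisome autophagy in Komagataella phaffii but not for autophagy in S. cerevisiae, was higher in YJM975 in glucose (0.51 ± 0.08).

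Across media, each strain's glycerol and ethanol groups were compared with the same glucose libraries, so the comparisons share them. In RM11, 28 of 37 members were called in glycerol against glucose (75.7%, against 81.7% of all genes), 11 higher and 17 lower, where 53.0% and 28.7% of all genes were. With centring the split was 5 higher and 24 lower (38.5% and 43.1% of all genes). In YJM975, 31 were called (83.8%, against 83.7% of all genes), 17 higher and 14 lower (41.2% and 42.6% of all genes), or 16 and 14 with centring (41.0% and 43.7%). For ethanol against glucose, 27 members were called in RM11 (73.0%, against 69.4% of all genes), 14 higher and 13 lower (32.0% and 37.4% of all genes), or 17 and 13 with centring (35.6% and 36.6%). In YJM975, ethanol gave 29 calls (78.4%, against 86.8% of all genes), 18 higher and 11 lower, which centring turned to 13 higher and 19 lower (40.9% and 46.7% of all genes). Without centring, 56.5% of all genes were higher there and 30.3% lower. At least 2-fold and called in that contrast were 6 members, against 38.4% of all genes.

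In both strains 7 members were higher in glycerol than in glucose (ATG5, ATG16, ATG21, ATG23, ATG27, ATG34 and ATG38) and 11 were lower (ATG1, ATG2, ATG3, ATG4, ATG11, ATG15, ATG26, ATG31, ATG40, ATG41 and ATG44). With centring ATG21 and ATG27 left the first list and ATG32 joined the second. In ethanol 11 were higher than in glucose in both strains, among them ATG14, ATG19, ATG36 and ATG45, and 8 were lower (ATG1, ATG3, ATG11, ATG26, ATG31, ATG40, ATG41 and ATG44). With centring ATG18 left the higher list in ethanol, and ATG2, ATG10 and ATG42 joined the lower one. The share of all genes called in the same direction in both strains was not counted. These lists therefore name members and cannot be set against a background. By role, the kinase complex had 0 members higher and 3 lower of 5 in RM11 glycerol against glucose, and 3 and 2 in YJM975, or 0 and 5 in RM11 and 3 and 2 in YJM975 with centring. The conjugation genes had 3 higher and 4 lower of 8 in RM11, and 3 and 4 in YJM975, or 2 and 4 in RM11 and 3 and 4 in YJM975 with centring. The selective genes had 4 higher and 4 lower of 12 in RM11, and 5 and 4 in YJM975, or 1 and 8 in RM11 and 5 and 4 in YJM975 with centring. Among all genes, 53.0% were higher and 28.7% lower in RM11 glycerol (38.5% and 43.1% with centring), and 41.2% and 42.6% in YJM975 glycerol (41.0% and 43.7%). In ethanol against glucose the selective genes gave 6 higher and 3 lower in RM11, and 5 and 5 in YJM975, or 8 and 3 in RM11 and 5 and 7 in YJM975 with centring. Their median difference was 0.05 in YJM975 ethanol, against 0.04 for conjugation, 0.43 for the kinase complex and 0.35 for all genes.

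**Figure D4:**
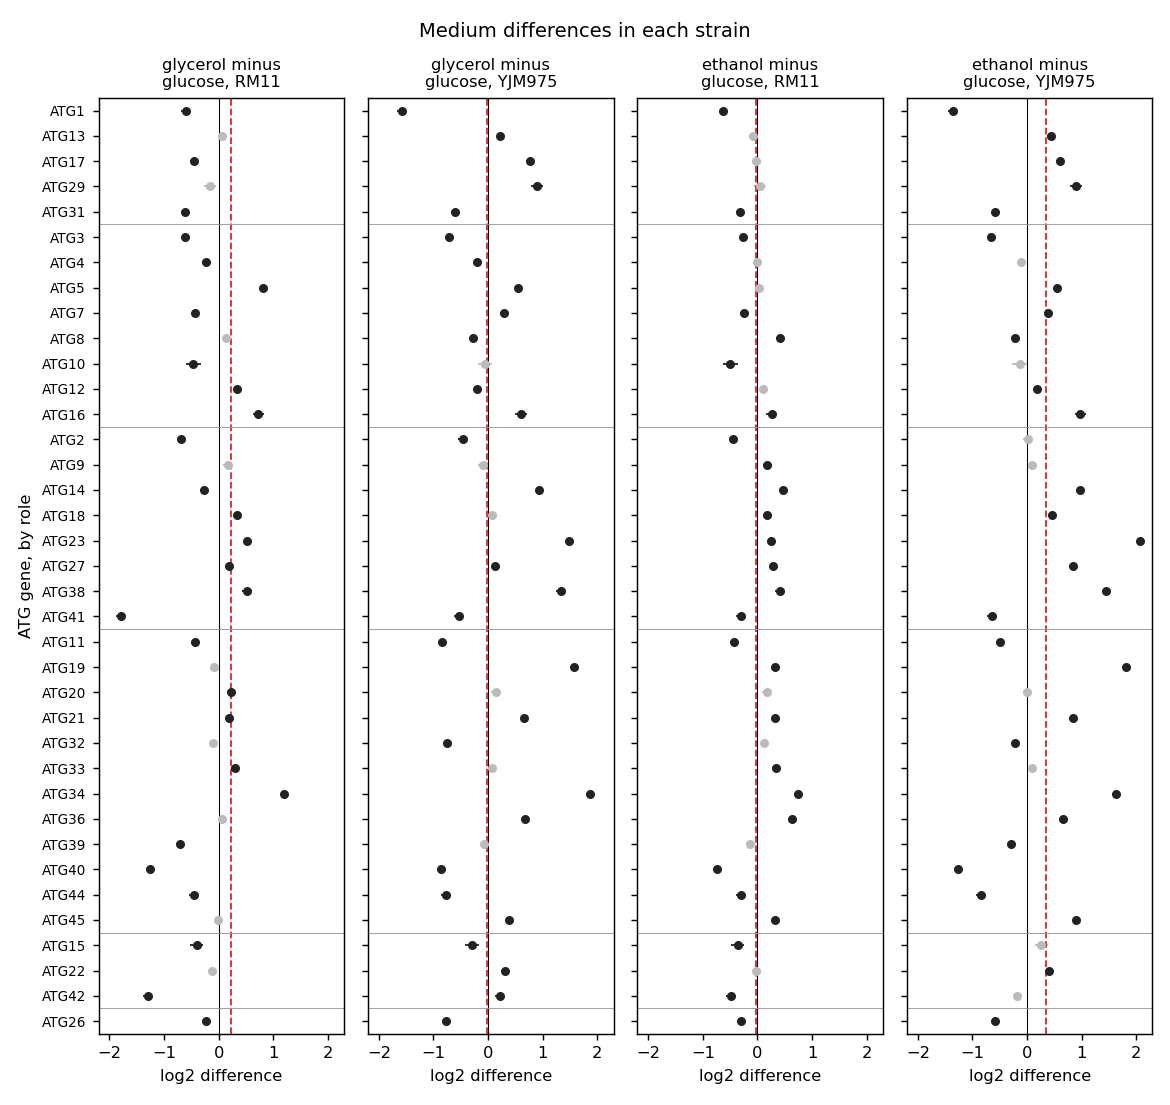
Log2 difference in log2(TPM + 1) for the 37 ATG genes by role, for glycerol or ethanol minus glucose in each strain. Bars are standard errors, black points are called and grey points are not, and the red dashed line is the median of all genes tested. ATG34 reaches 1.86 in YJM975 glycerol and ATG41 -1.79 in RM11 glycerol.

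Glycerol and ethanol libraries share a run label. Between them 24 members were called in RM11 (64.9%, against 75.5% of all genes), 17 higher in ethanol and 7 lower, against 21.4% and 54.1%. With centring 31 were higher and 2 lower (43.5% and 33.3% of all genes). The members that rose most in RM11 were ATG41 (1.48 ± 0.09, from 55.8 to 158 TPM) and ATG42 (0.81 ± 0.08, from 36.9 to 65.3 TPM). Those that fell most were ATG5 (-0.79 ± 0.06, from 42.99 to 24.4 TPM) and ATG16 (-0.47 ± 0.10, from 16.3 to 11.5 TPM), of which ATG16 was -0.16 and not called with centring. In YJM975 21 were called (56.8%, against 77.1% of all genes), 16 higher and 5 lower, against 64.0% and 13.1%. Centring turned this to 3 higher and 27 lower (32.3% and 40.8% of all genes), so the direction for most members there rests on the scaling. ATG27 (0.71 ± 0.06, from 45.2 to 74.8 TPM) and ATG23 (0.60 ± 0.06, from 28.8 to 44.2 TPM) rose most in YJM975. ATG40 (-0.40 ± 0.07, from 92.8 to 70.1 TPM) and ATG42 (-0.40 ± 0.08, from 97.7 to 73.8 TPM) fell most.

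The test of the strain by medium interaction asks whether the 2 strains respond differently. For glycerol against glucose 27 members were called (73.0%, against 78.3% of all genes), 16 with a more positive response in YJM975 and 11 with a more negative one (31.5% and 46.7% of all genes), and 23 and 4 with centring (43.4% and 37.1%). For ethanol against glucose 29 were called (78.4%, against 76.8%), 19 more positive and 10 more negative (56.5% and 20.2%), and 5 and 18 with centring (35.4% and 41.8%). For ethanol against glycerol 23 were called (62.2%, against 80.8%), 13 more positive and 10 more negative (65.4% and 15.4%), and 1 and 30 with centring (33.7% and 44.6%). ATG19 responded more in YJM975 to both glycerol (1.66 ± 0.08) and ethanol (1.50 ± 0.08), and ATG23 to ethanol (1.83 ± 0.08). ATG1 fell more in YJM975 in both (-0.98 ± 0.12 and -0.73 ± 0.12). Beside the RM11 glycerol values of ATG41, ATG42 and ATG39 stands the sporulation marker sum of 979 ± 60.7 TPM (SD, n = 3), against 253 ± 14.6 TPM in YJM975 glycerol, and its part in their interaction was not tested. The RM11 glycerol sum was mostly SPS4 (636 TPM) and the YJM975 glycerol sum mostly IME1 (227 TPM, against 153 TPM in RM11 glycerol). The other marker lists also set RM11 glycerol apart. HXK2 averaged 71.3 TPM there and 1.84 TPM in YJM975 glycerol. The stationary-phase marker sum was 5834 ± 246 TPM in RM11 glycerol and 14704 ± 553 TPM in YJM975 glycerol. HSP26, SNZ1 and SNO1 were lowest in RM11 glycerol, but SPG1 and SPG4 in RM11 glucose. The part of these markers was not tested either.

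Genes that act with the ATG proteins but carry other names were taken as 4 lists, whose counts are set beside the shares of all genes. Those shares were 22.5% higher and 60.7% lower (43.7% and 39.6% with centring) for YJM975 against RM11 in glucose and 16.2% higher and 70.1% lower (46.1% and 37.6% with centring) in glycerol. For YJM975 ethanol against glucose they were 56.5% higher and 30.3% lower (40.9% and 46.7% with centring). Of 9 partners, 6 were lower in YJM975 in glucose and 0 higher (3 higher and 6 lower with centring), led by VPS15, the regulatory subunit of the phosphatidylinositol 3-kinase (-1.59 ± 0.09), CUE5, a ubiquitin-binding receptor (-0.91 ± 0.06), and VAC8, a vacuolar membrane protein of the Cvt pathway (-0.84 ± 0.08). In YJM975 ethanol against glucose all 9 partners were called higher, against 6 higher and 3 lower with centring, and VPS15 rose most (2.06 ± 0.09). Of 9 vacuole fusion genes, 7 were lower and 1 higher in YJM975 in glucose, or 5 lower and 3 higher with centring. VAM6 (-1.29 ± 0.07), a tethering subunit, and CCZ1 (-1.24 ± 0.09), which activates the fusion GTPase Ypt7, were lowest. VPS15 and CCZ1 averaged 0.794 and 0.931 TPM in YJM975 glucose and 4.38 and 3.56 TPM in RM11 glucose. Their differences from YJM975 glucose thus rest on values near the floor, below the pseudocount of 1. Aminopeptidase I, the Cvt cargo that Atg19 carries, is encoded by APE1. In glucose its mean was 42.1 TPM for RM11 and 13.8 TPM for YJM975 (-1.55 ± 0.06), and rose in YJM975 ethanol (1.99 ± 0.06). α-Mannosidase, the cargo that Atg19 and Atg34 share, is encoded by AMS1, which rose in YJM975 in glycerol (1.19 ± 0.08) and ethanol (1.21 ± 0.08). Of 7 vacuolar hydrolase genes, 4 were higher and 0 lower in YJM975 in glycerol, and all 7 higher with centring. They include PHO8, the vacuolar alkaline phosphatase (0.56 ± 0.08), and PRB1, proteinase B (0.53 ± 0.09). Among 15 regulators 2 were higher and 11 lower in YJM975 in glycerol, and 11 higher and 1 lower with centring. UME6, the repressor of early meiotic genes and of ATG8, was lower there (-1.31 ± 0.08), and was lower in YJM975 glycerol than in YJM975 glucose (-1.75 ± 0.08). ATG8 was likewise lower in YJM975 glycerol than in YJM975 glucose (means of 764 and 919 TPM). In glucose both genes were higher in YJM975 than in RM11, UME6 at 33.1 against 22.2 TPM and ATG8 at 919 against 550 TPM. The relation of UME6 to ATG8 was not tested. LST8, a TOR complex subunit, was higher in YJM975 in glucose (0.92 ± 0.06) and lower in YJM975 ethanol than glucose (-1.54 ± 0.06).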

How the data were processed

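The authors deposited 1 table of TPM values for 18 libraries. The submitters' processing notes name kallisto. The sources used here give no version, transcript build or read depth. Each column summed to 1000000, and all columns were used. Names were matched to the RefSeq R64 annotation by systematic name (5929 matched, 683 did not, none of them an ATG gene). Transcripts with a mean of at least 1 TPM (6309 of 6612) were fitted as log2(TPM + 1) with limma 3.58.1 (trend, empirical Bayes; R 4.3.3) on 6 group means, leaving 12 residual degrees of freedom. The pseudocount understates the changes of low genes. Adjusted p-values are Benjamini-Hochberg within each of 12 contrasts over all genes tested. The fit was tested on simulated data. Replicates are biological per the labels' protocols, but whether they come from separate days is not stated.

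The members, role groups and lists were chosen with earlier results of these data known. Values in every library are given for ATG1, ATG8, ATG11 and ATG32 and for the 2 members with the largest called rise and fall in each strain contrast and each contrast with glucose; other contrasts give group means for such members, and each other list up to 3 called genes. ATG14, ATG17, ATG29, ATG39 and the other members named outside this rule were chosen after their values were seen. Promoters were read from the R64 sequence by its own annotation, since no table of promoters or proteins was at hand. The promoter of 1 further member is not reported here. A BLAST 2.17.0 search found no member with a copy of at least 95% identity over 50% of its length. Alternatives were other pseudocounts, filters and scalings, a replicate block, no trend, only the groups compared, and leaving out each library in turn. Leaving out all libraries labelled glucose was chosen after seeing the data. Same-numbered libraries did not deviate together, so the numbers were not taken as pairs.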

Additional observations from a re-analysis of the deposited data

Results flagged for a closer look

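Each of the following was picked out because the test of the strain by medium interaction was passed, so the response itself differed between RM11 and YJM975. For glycerol against glucose 27 members were called, for ethanol against glucose 29 and for ethanol against glycerol 23, which are shares near or below those of all genes given with the results. For glycerol against glucose, the YJM975 response exceeded that of RM11 by 1.66 for ATG19 and 1.52 for ATG42 on the log2 scale. It was more negative for ATG1 (-0.98), ATG32 (-0.64), ATG11 (-0.40) and ATG8 (-0.39), of which ATG11 became 0.08 with quantile normalization. The ATG8 and ATG11 values were much smaller with median centring. There the strain difference in glucose and glycerol was 1.17 and 1.03 for ATG8, and 0.60 and 0.46 for ATG11. Of 8 conjugation and 12 selective genes, 1 each was then called more negative in YJM975, against 37.1% of all genes. The same strain differences were further apart for ATG12 (0.51 and 0.24) and ATG32 (0.98 and 0.60). For ethanol against glucose the interaction was 1.83 for ATG23 and 1.50 for ATG19, and -0.73 for ATG1, -0.62 for ATG8 and -0.34 for ATG32. For ethanol against glycerol, libraries that share a run label, it was -1.58 for ATG41 and -1.20 for ATG42, whose RM11 glycerol libraries were lower than all others. In the same comparison it was 0.88 for ATG23, 0.84 for ATG16, 0.34 for ATG11, 0.31 for ATG32 and -0.23 for ATG8, of which ATG8 was not called with any of 7 single libraries left out (-0.16 to -0.23). ATG11 (-0.39) and ATG32 (-0.42) reversed with median centring, and ATG16 (-0.09) with quantile normalization. The ATG23 and ATG16 values were much smaller with centring. There the strain difference in glycerol and ethanol was 0.38 and 0.53 for ATG23, and 0.18 and 0.29 for ATG16. None of the 8 conjugation genes, ATG16 included, was then called more positive in YJM975, against 33.7% of all genes.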

How the results depend on the processing

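None of the 125 counts of called members under another setting moved by more than 1.5 times, and 212 of 216 counts with 1 library left out stayed within it. The 4 exceptions were in the ethanol strain contrast, whose leave-one-out counts ran from 5 to 13. Over all 37 members and 12 contrasts (444 values), median centring kept direction and call for 265, ended 31 calls, gave 56 new ones and reversed 92 (a change of sign with a call under at least 1 of the scalings). Quantile normalization kept 265 and reversed 87, and rescaling without the 50 most abundant transcripts kept 326 and reversed 37. Pseudocounts, filters, the block, no trend, fitting only the groups compared and leaving out libraries, 1 at a time or all those labelled glucose, reversed none. For 154 of these 444 values, those of members named with a contrast or by rule, 1490 of 1601 under other settings kept direction and call, 28 lost and 36 gained the call, and 47 reversed. With 1 library left out, 2728 of 2772 kept both, 28 lost and 16 gained the call, and none reversed. The 47 reversals arose under another scaling, and the cause was not tested. With median centring they were, among the 154, for YJM975 minus RM11 in glucose, ATG2 0.17, ATG4 0.40 and ATG19 0.16; in glycerol, ATG1 0.49, ATG10 0.20, ATG11 0.46, ATG13 0.32, ATG23 0.38, ATG27 0.15, ATG32 0.60, ATG33 0.56 and ATG34 0.59; for ethanol minus glycerol, ATG1 0.29 in RM11 and ATG1 -0.19, ATG8 -0.37 and ATG11 -0.07 in YJM975; and for the interaction of ethanol minus glycerol, ATG1 -0.48, ATG11 -0.39 and ATG32 -0.42. With quantile normalization they were, for the strains in glucose, ATG2 0.36 and ATG4 0.31; in glycerol, ATG1 0.53, ATG10 0.55, ATG11 0.62, ATG13 0.37, ATG23 0.34, ATG32 0.45, ATG33 0.22 and ATG34 0.19; for ethanol minus glycerol, ATG1 0.34 in RM11 and ATG1 -0.19 and ATG11 -0.12 in YJM975; for the interaction of glycerol minus glucose, ATG11 0.08; and for that of ethanol minus glycerol, ATG1 -0.53, ATG11 -0.54, ATG16 -0.09 and ATG32 -0.28. After rescaling without the 50 most abundant transcripts they were, for the strains in glycerol, ATG1 0.15, ATG11 0.11, ATG23 0.04, ATG32 0.26, ATG33 0.23 and ATG34 0.26; in YJM975 for ethanol minus glycerol, ATG1 -0.03 and ATG8 -0.22; and for the interaction of ethanol minus glycerol, ATG11 -0.03 and ATG32 -0.08. A fit with replicate number as a block changed the 12 counts by at most 2, to 28, 23 and 11 for the strains in glucose, glycerol and ethanol, 28, 29 and 23 in RM11 and 30, 29 and 21 in YJM975 for the media, and 27, 29 and 22 for the interactions. Same-numbered libraries correlated in their deviations at -0.217 to 0.159, with 4 of 45 pairs over 0.1 and 2 of 18 libraries closest to their own number. No pairing by number was thus seen, though this cannot show that same-numbered cultures were handled apart. With no read counts, the depth behind low members such as ATG10 is unknown. Glucose and run label cannot be told apart.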
